A study of Rattus norvegicus with 16 samples.

Results

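The elastic fibre and crosslinking genes described here are 10 genes, *Eln*, *Fbn1*, *Fbn2*, *Mfap4*, *Mfap5*, *Fbln1*, *Fbln2*, *Fbln5*, *Lox* and *Loxl1*, out of 14217 genes on the arrays. They were taken by symbol: a probe set was used where the annotation of the array gives it exactly 1 gene symbol and that symbol is one of the 10. All 10 genes were found, on 14 of the 31042 probe sets tested, with 6 genes on 1 probe set and *Eln*, *Fbln1*, *Fbn1* and *Lox* on 2 each. Where a gene has 2 probe sets, the brighter one over the 16 arrays stands for it, and the other is given beside it.

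Elastic fibres are built on a scaffold of fibrillin microfibrils, on which elastin is deposited with the help of fibulins and microfibril-associated proteins. Lysyl oxidase and its relatives are copper-dependent enzymes that crosslink lysines of elastin and of fibrillar collagen outside the cell. The adult cornea is a tissue of ordered collagen with few elastic fibres, in which fibrillin microfibrils are found mainly toward the limbus and beneath the epithelium.

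The corneas came from male Wistar rats aged 12 to 16 weeks, with 4 arrays in each of 4 groups and 1 cornea on each array. In the dexamethasone, anti-*Vegf* and IgG groups the right cornea carried 2 sutures at 1.5 mm from the limbus and received 8 eyedrops over 2 days, whereas the naïve corneas were neither sutured nor treated. Dexamethasone, a synthetic glucocorticoid, was given at 1 mg/ml. The antibody against rat *Vegf* and the goat IgG that served as sham were given at 20 mg/ml according to the labels, and the methods give the same number in a smaller unit. The labels of the IgG arrays name an anti-IgG antibody, and the 2 sources also differ on how much of the cornea was harvested. No sutured cornea without drops was among the arrays, so the effects of suture and drops relative to naïve corneas cannot be told apart.

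The deposited values are log2 signals made with RMA, with array medians between 6.551 and 6.618. *Krt12*, the keratin of the corneal epithelium, averaged 14.70 in each treated group and 14.76 in naïve corneas. Only *Krt14* of 8 epithelial genes passed the limits given below. It was higher than in naïve corneas by 1.55, 1.69 and 1.62 on the log2 scale in dexamethasone, anti-*Vegf* and IgG. *Pax6* (−0.54, −0.45 and −0.44) and *Aldh3a1* (−0.25, −0.37 and −0.27) were lower in these groups by less than 1.5-fold. *Lum*, which encodes the stromal proteoglycan lumican, averaged between 13.27 and 13.61 in the 4 groups. Poly-A control RNAs, which are added before labelling, differed between groups, with a mean log2 signal of 5.17 on dexamethasone, 6.88 on anti-*Vegf*, 7.08 on IgG and 5.10 on naïve arrays. Whether poly-A level had a part in the results below was not tested. Sutured corneas were right eyes, so the arrays of the treated groups came from different rats, and the eye of the naïve corneas is not stated in the labels. With 4 arrays against 4, the smallest exact permutation p in both directions is 0.0286.

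No promoter was matched for *Lox*, *Mfap4*, *Eln* and *Fbln1*, and promoter sequences of the other 6 of the 10 genes were found in RefSeq (GRCr8). Those of *Fbn1*, *Fbln5* and *Loxl1* are shown because these 3 genes were DEGs in at least 1 comparison and the other 3 with a sequence in none. Each is the 250 bases before the transcript start in that table, written 5′ to 3′ on the coding strand, with capitals marking a GC box (GGGCGG on either strand).
Fbn1, chr3:133203391-133203640, minus strand: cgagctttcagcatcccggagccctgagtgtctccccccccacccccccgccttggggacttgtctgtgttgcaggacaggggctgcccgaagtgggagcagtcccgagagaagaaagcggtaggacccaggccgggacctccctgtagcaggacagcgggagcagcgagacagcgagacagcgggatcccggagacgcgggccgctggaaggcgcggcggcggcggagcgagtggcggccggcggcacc
Fbln5, chr6:126742707-126742956, minus strand: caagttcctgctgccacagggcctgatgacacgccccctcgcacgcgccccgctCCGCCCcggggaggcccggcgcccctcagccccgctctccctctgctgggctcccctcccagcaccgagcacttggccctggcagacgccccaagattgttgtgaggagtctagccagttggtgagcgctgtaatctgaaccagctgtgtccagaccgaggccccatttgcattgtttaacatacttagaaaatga
Loxl1, chr8:67612225-67612474, minus strand: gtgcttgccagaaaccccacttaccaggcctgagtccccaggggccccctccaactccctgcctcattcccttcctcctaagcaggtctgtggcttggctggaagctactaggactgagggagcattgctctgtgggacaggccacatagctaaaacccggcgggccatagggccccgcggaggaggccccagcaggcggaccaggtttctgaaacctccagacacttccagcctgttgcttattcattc
The window of *Fbn1* lies within the annotated span of the gene, and that of *Fbln5* partly within it, since the start used in the promoter table is downstream of the outermost start. A GC box was found in 2 of the 6 windows, those of *Fbln5* and *Fbln2*, and in 30.5% of all 33469 windows of this length. A CCAAT box stood in 1 window, that of *Mfap5*, and in 34.0% of all windows. An AP-1 site (TGANTCA, 6.34% of all windows), a TATA box (TATAAA, 12.9%) and a full glucocorticoid response element (0.012%) stood in 0 of the 6 windows, with both strands searched for each motif. The full response element is so rare that its absence from 6 windows says little, and *Lox* was not among them.

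Relative to naïve corneas, the signals of *Lox*, *Fbn1* and *Fbln1* were higher and those of *Mfap4* and *Fbln5* lower in all 3 treated groups, whereas *Eln*, *Fbn2*, *Fbln2* and *Mfap5* passed the test in none. *Loxl1* was lower in anti-*Vegf* treated corneas. The largest changes were the 4.18-fold higher signal of *Lox* with dexamethasone and the 7.18-fold lower signal of *Mfap4* with anti-*Vegf*. DEGs had to pass both an adjusted p under 0.05 (limma, Benjamini-Hochberg over all probe sets) and a fold change of at least 1.5. The 3 comparisons share the naïve arrays. In dexamethasone treated corneas 3 of the 10 genes were higher and 2 lower, against 8.19% and 4.45% of all genes. In anti-*Vegf* treated corneas 3 were higher and 3 lower, against 6.82% and 5.94% of all genes. In IgG treated corneas 3 were higher and 2 lower, against 6.32% and 5.02% of all genes. The median log2 change of the 10 genes stayed near that of all genes, at 0.04 with dexamethasone, −0.03 with anti-*Vegf* and 0.09 with IgG, against 0.004, −0.007 and −0.007 over all genes.

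**Figure D1:**
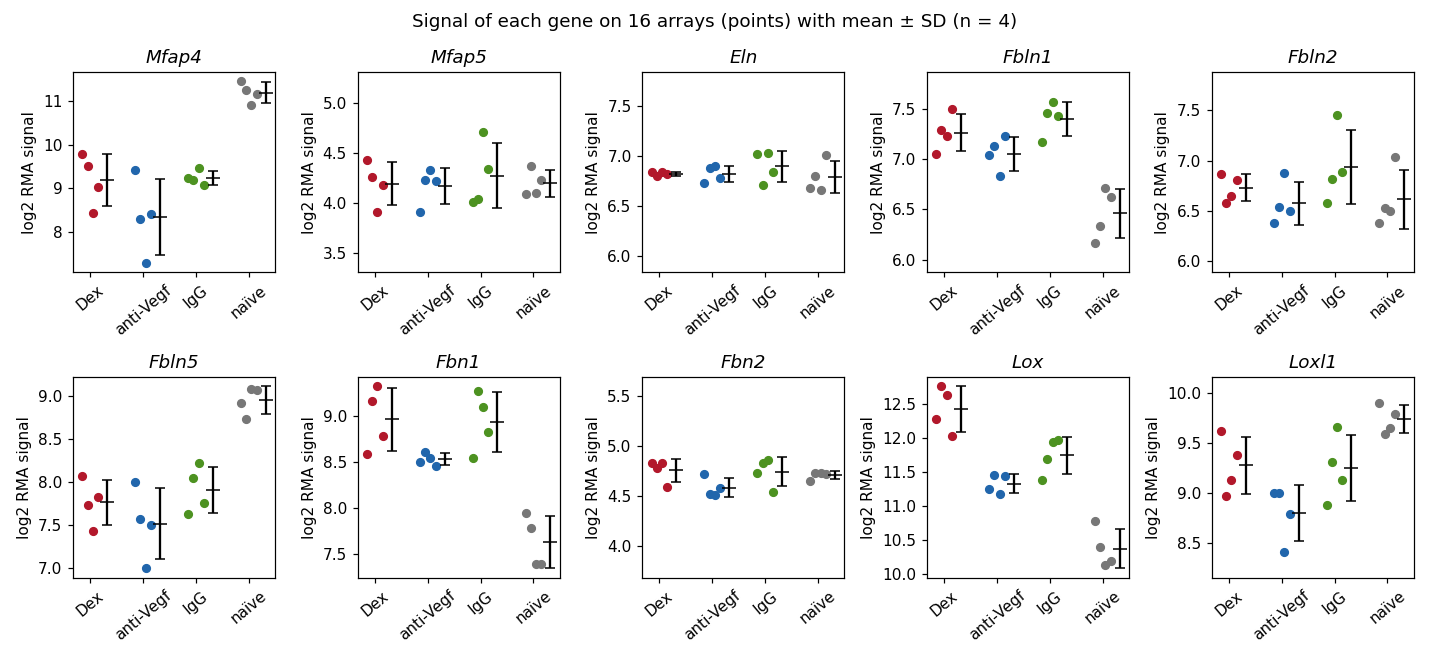
Log2 RMA signal (vertical axes, each spanning at least 2 units) of the 10 genes on 16 arrays, 4 per group, with the mean and SD beside the points. All treated arrays lie above the naïve arrays for *Lox*, *Fbn1* and *Fbln1* and below them for *Mfap4* and *Fbln5*, while *Eln* spans 0.37 over all 16 arrays.

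*Fbn1* encodes fibrillin-1, the main protein of microfibrils in adult tissue and the gene mutated in Marfan syndrome in humans. Its log2 signals were 8.58, 9.16, 9.32 and 8.78 in dexamethasone, 8.50, 8.61, 8.54 and 8.46 in anti-*Vegf*, 8.54, 9.27, 9.10 and 8.82 in IgG and 7.95, 7.78, 7.39 and 7.39 in naïve corneas. Every treated array lay above every naïve array, and the 4 anti-*Vegf* arrays were the most tightly grouped. The log2 change relative to naïve was 1.33 with dexamethasone (adjusted p = 6.00e-05, limma), 0.90 with anti-*Vegf* (adjusted p = 0.00132) and 1.30 with IgG (adjusted p = 6.97e-05), with a standard error of 0.18 for each. The other probe set of *Fbn1* gave 1.23, 1.05 and 1.45 in the same order and passed the test in all 3. With arrays centred on reference genes, the change with anti-*Vegf* was 0.47 and under the fold limit.

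*Fbn2* encodes fibrillin-2, which is made mainly during development. Its signal was low and flat, with the lowest array at 4.51 and the highest at 4.86, and its log2 change relative to naïve was 0.05 with dexamethasone, −0.13 with anti-*Vegf* and 0.03 with IgG (standard error 0.08 for each). The bound of the 3 95% intervals that lay farthest from 0 was −0.30, with anti-*Vegf*. The probe set was dim, at the 19.1 percentile of all probe sets by mean signal.

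*Mfap4* encodes a microfibril-associated glycoprotein that binds tropoelastin and fibrillin-1. It had log2 signals of 9.78, 9.50, 8.44 and 9.03 in dexamethasone, 9.42, 8.29, 7.28 and 8.40 in anti-*Vegf*, 9.23, 9.19, 9.46 and 9.08 in IgG and 11.46, 11.26, 10.90 and 11.15 in naïve corneas. No treated array reached the lowest naïve array, and the anti-*Vegf* arrays spread far more widely than the IgG arrays. The signal was lower than in naïve corneas by 4.01-fold with dexamethasone (log2 change −2.0, adjusted p = 0.000465, limma), by 7.18-fold with anti-*Vegf* (−2.84, adjusted p = 2.03e-05) and by 3.86-fold with IgG (−1.95, adjusted p = 0.000541), with a standard error of 0.34 on the log2 scale.

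*Mfap5* encodes a microfibril-associated glycoprotein that is held in fibrillin microfibrils. Its signal lay between 3.91 and 4.71 on all arrays, at the 12.5 percentile of probe sets, and its log2 change relative to naïve was 0.00 with dexamethasone, −0.02 with anti-*Vegf* and 0.08 with IgG (standard error 0.15).

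The 3 fibulins differed in direction. *Fbln1*, whose product is found in elastic fibres and basement membranes, had log2 signals of 7.05, 7.29, 7.23 and 7.5 in dexamethasone, 7.04, 7.13, 6.83 and 7.23 in anti-*Vegf*, 7.17, 7.46, 7.57 and 7.43 in IgG and 6.17, 6.34, 6.71 and 6.62 in naïve corneas. The highest naïve array stayed below the lowest treated array. The log2 change was 0.81 with dexamethasone (adjusted p = 0.000360, limma), 0.60 with anti-*Vegf* (adjusted p = 0.00312) and 0.95 with IgG (adjusted p = 9.06e-05), with a standard error of 0.13. The value with anti-*Vegf* stood at the fold limit, which is 0.58 on the log2 scale: it was 0.57 without anti-*Vegf* F2, 0.54 without anti-*Vegf* F7, 0.50 without naïve 1 and 0.56 without naïve 2. The other probe set gave 0.43 for that comparison (adjusted p = 0.0384), under the limit, and 0.82 with dexamethasone and 0.60 with IgG, over it. Centring on reference genes gave 0.46 with dexamethasone and 0.16 with anti-*Vegf*, both under the limit.

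*Fbln5* encodes a fibulin that binds elastin and cells and is needed for elastic fibre assembly in mice. Its log2 signals were 8.07, 7.74, 7.43 and 7.83 in dexamethasone, 8.00, 7.57, 7.0 and 7.51 in anti-*Vegf*, 7.63, 8.05, 8.22 and 7.76 in IgG and 8.92, 8.74, 9.09 and 9.07 in naïve corneas. All 12 treated arrays lay below the naïve arrays, and the treated groups overlapped one another. It was 2.28-fold lower with dexamethasone (log2 change −1.19, adjusted p = 0.000247, limma), 2.70-fold lower with anti-*Vegf* (−1.43, adjusted p = 4.21e-05) and 2.06-fold lower with IgG (−1.04, adjusted p = 0.000672), with a standard error of 0.19 on the log2 scale.

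*Fbln2*, whose product binds fibrillin-1 and tropoelastin, lay between 6.38 and 7.45 on all arrays. Its log2 change relative to naïve was 0.12 with dexamethasone, −0.04 with anti-*Vegf* and 0.32 with IgG (standard error 0.17), and the groups overlapped in each comparison.

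*Eln* encodes tropoelastin, the soluble precursor of the elastic core. Its mean log2 signal was 6.82 ± 0.02 in dexamethasone, 6.82 ± 0.08 in anti-*Vegf*, 6.90 ± 0.15 in IgG and 6.79 ± 0.16 in naïve corneas (SD, n = 4 each). The log2 change relative to naïve was 0.04, 0.04 and 0.11 in the treated groups in this order (standard error 0.09), and the outer bounds of the 3 95% intervals were −0.15 and 0.30. The other probe set of *Eln* was not called in any of the 6 comparisons either, with changes relative to naïve of −0.04, −0.14 and −0.19.

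*Lox* encodes lysyl oxidase, the enzyme that starts the crosslinking of elastin and collagen. Its log2 signals were 12.28, 12.77, 12.64 and 12.04 in dexamethasone, 11.25, 11.45, 11.18 and 11.44 in anti-*Vegf*, 11.38, 11.70, 11.94 and 11.98 in IgG and 10.77, 10.39, 10.12 and 10.19 in naïve corneas. The dexamethasone arrays were the highest and the naïve arrays the lowest, and neither group overlapped any other. Relative to naïve, the log2 change was 2.06 with dexamethasone (adjusted p = 7.33e-07, limma), 0.96 with anti-*Vegf* (adjusted p = 0.000663) and 1.38 with IgG (adjusted p = 3.44e-05), with a standard error of 0.17 for each. The other probe set, of the kind that recognises several transcripts of a gene, gave 2.17, 1.38 and 1.84 in the same order. With arrays centred on reference genes, the change of the brighter probe set with anti-*Vegf* was 0.53 and under the fold limit.

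*Loxl1* encodes the lysyl oxidase relative that is bound by fibulin-5 and acts on elastin in mice. Its log2 signals were 9.62, 8.97, 9.13 and 9.38 in dexamethasone, 9.0, 9.0, 8.41 and 8.79 in anti-*Vegf*, 8.88, 9.31, 9.66 and 9.13 in IgG and 9.90, 9.59, 9.65 and 9.79 in naïve corneas. Only the anti-*Vegf* arrays lay wholly below the naïve arrays. The log2 change was −0.46 with dexamethasone (adjusted p = 0.0698, limma), −0.93 with anti-*Vegf* (adjusted p = 0.000838) and −0.49 with IgG (adjusted p = 0.0463, under the fold limit), with a standard error of 0.17. Between anti-*Vegf* and the other 2 treatments the difference did not pass the test (adjusted p = 0.116 for dexamethasone against anti-*Vegf* and 0.739 for anti-*Vegf* against IgG). Without IgG F22 the change with IgG was −0.63 and passed both limits.

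**Figure D2:**
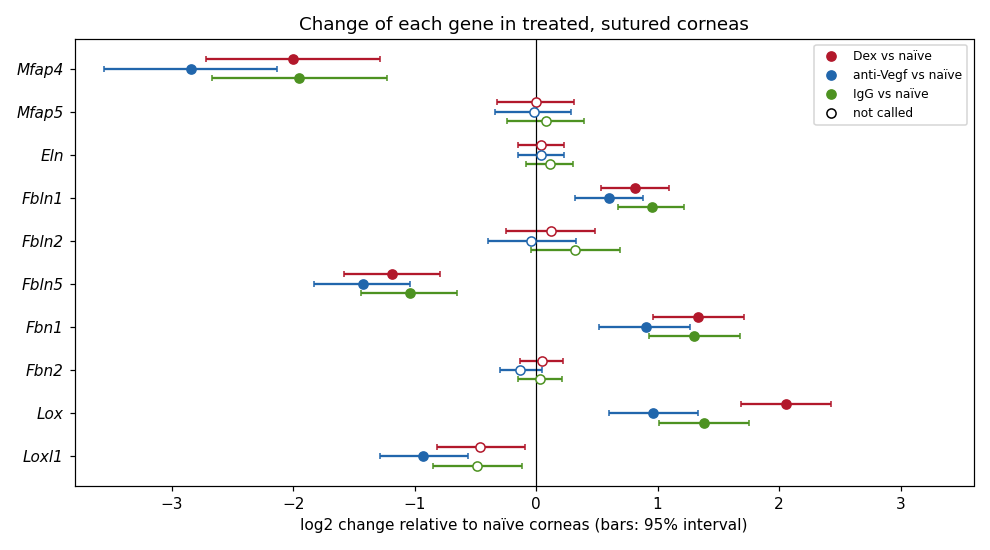
Log2 change relative to naïve corneas (horizontal axis, points) with its 95% interval (bars) for each of the 10 genes in dexamethasone, anti-*Vegf* and IgG treated corneas, 4 arrays per group. Filled points passed the limits of a DEG and open points did not, with *Lox* reaching 2.06 with dexamethasone and *Mfap4* −2.84 with anti-*Vegf*.

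Markers of other cell types changed with the same contrast. Of 11 leukocyte genes, 10 were higher than in naïve corneas in each treated group, and their mean log2 signal ranged from 8.10 to 9.25 in dexamethasone, 8.79 to 8.92 in anti-*Vegf*, 8.72 to 9.09 in IgG and 6.30 to 6.53 in naïve corneas. The pan-leukocyte gene *Ptprc* was higher by 3.47, 3.78 and 3.55 on the log2 scale in dexamethasone, anti-*Vegf* and IgG. Of 5 measured corneal endothelial genes, 3, 4 and 4 were lower in these groups, with a mean signal of 9.75 ± 0.06, 9.42 ± 0.45 and 9.39 ± 0.66, against 10.75 ± 0.26 in naïve corneas (SD, n = 4 each). The highest treated array, at 10.05, stayed below the lowest naïve array, at 10.37. The 8 measured keratocyte genes, markers of the resident stromal fibroblasts, averaged 10.68, 10.33 and 10.54 in the treated groups and 10.56 in naïve corneas, and 1, 1 and 1 of them were higher and 1, 2 and 1 lower. Among these, *Pdgfra*, the receptor of stromal fibroblasts for platelet-derived growth factor, was higher by 1.88, 1.37 and 1.48, and *Aldh1a1*, an aldehyde dehydrogenase abundant in keratocytes, was lower (−0.75, −1.45 and −1.19). The 9 mural and smooth muscle genes averaged 6.48, 6.43 and 6.56 in the treated groups and 6.34 in naïve corneas, with 1, 0 and 1 higher and 0, 1 and 1 lower, which were *Tagln* (0.96 with dexamethasone and 1.03 with IgG) and *Mylk* (−0.75 with anti-*Vegf* and −0.78 with IgG). The part of these shifts in the results of the 10 genes was not tested, and in this bulk corneal tissue fewer cells of a type and less RNA per cell cannot be told apart.

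Between treatments, where a gene was called at an adjusted p under 0.05 with no fold limit, *Lox* was the only one of the 10 genes called. Its signal with dexamethasone was 2.14-fold that with anti-*Vegf* (log2 difference 1.10, adjusted p = 0.00201, limma), with no overlap between the arrays. The other probe set, with log2 signals of 11.75, 12.25, 12.38 and 11.46 in dexamethasone and 11.19, 11.41, 10.99 and 11.09 in anti-*Vegf* corneas, differed by 0.79 (adjusted p = 0.0341), again without overlap. Between the same groups the poly-A controls differed by −1.71 and the 5′ minus 3′ signal of *Gapdh* by −0.27 (exact permutation test, p = 0.0286 for both). Of the 5 corneal endothelial genes, *Cdh2* (1.09) and *Col8a2* (0.88) were called higher with dexamethasone than with anti-*Vegf*. The other members, *Slc4a11* (0.40), *Col8a1* (0.33) and *Car3* (−1.05), were not called. The keratocyte gene *Aldh1a1* (0.69) was called higher, with 7 of its list not called and a list median of 0.20. The macrophage gene *Cd68* (−0.81) was called lower, with 10 leukocyte genes not called and a list median of −0.14. The epithelial gene *Epcam* (−0.29) was called lower, with 7 of its list not called and a list median of −0.09. The part of these controls and markers in the difference of *Lox* was not tested. Of all genes, 4.63% were higher and 2.50% lower with dexamethasone than with anti-*Vegf*. The median difference of the 10 genes was 0.23 against 0.025 over all genes. The sign was the same for all 10, but *Eln* (0.00 after rounding) and *Mfap5* (0.02) hardly differed. The share of all genes with that sign was not counted. At an unadjusted p under 0.05 by limma, 4 of the 10 (*Lox*, *Loxl1*, *Mfap4* and *Fbn1*) were higher, as were 14.6% of all genes. That count was 2 without anti-*Vegf* F6, dexamethasone F25 or dexamethasone F26 and 6 without anti-*Vegf* F1x, the ends of its range when arrays were left out in turn. *Mfap4* differed by 0.84 (adjusted p = 0.154), and without anti-*Vegf* F1x, its highest array in that group, by 1.20 (adjusted p = 0.0276).

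Relative to IgG, the signal of *Lox* with dexamethasone was 1.60-fold higher (log2 difference 0.68, 95% interval 0.31 to 1.05, adjusted p = 0.0216, limma). The lowest dexamethasone array, at 12.04, was just above the highest IgG array, at 11.98. On the other probe set the IgG arrays had 11.20, 11.60, 11.84 and 11.89, the groups overlapped and the difference was 0.32 (adjusted p = 0.368). The call was also lost without IgG F17 (0.56, adjusted p = 0.0692), IgG F19 (0.66, adjusted p = 0.0564), dexamethasone F26 (0.57, adjusted p = 0.0721) or dexamethasone F27 (0.61, adjusted p = 0.0682). Between the same groups the poly-A controls differed by −1.91 on the log2 scale, and the 5′ minus 3′ signal by −0.46 for beta-actin and −0.31 for *Gapdh*, which are all lower on the dexamethasone arrays (p = 0.0286 in each case, exact permutation test in both directions). Of the 5 corneal endothelial genes only *Cdh2* was called, higher with dexamethasone than with IgG (1.16). The median of that list was 0.50, and *Car3* was at −0.87. Among the 11 leukocyte genes only *Cd68* was called, lower (−0.86), with a list median of −0.08. The part of these shifts in the difference of *Lox* was not tested. Of all genes 7.41% were higher and 3.16% lower with dexamethasone than with IgG, and 0 of the 10 genes were lower. The other 9 genes differed by between −0.21 (*Fbln2*) and 0.03 (*Fbn1* and *Loxl1*), with a median over the 10 of −0.06 against 0.021 over all genes.

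**Figure D3:**
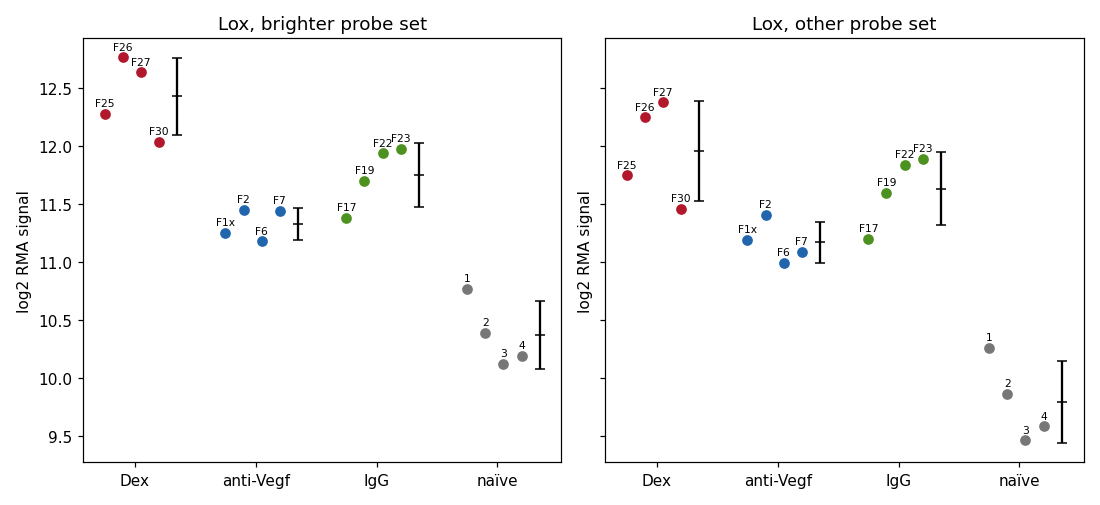
Log2 RMA signal (vertical axis) of the 2 *Lox* probe sets on each of the 16 arrays, labelled by array, with the mean and SD of each group of 4. On the brighter probe set dexamethasone stands above IgG by 0.68 without overlap, and on the other probe set the 2 groups overlap and differ by 0.32.

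Between anti-*Vegf* and IgG treated corneas, 0 of the 10 genes were called, as were 0% of all genes higher and 0% lower at an adjusted p under 0.05 by limma. All 10 genes had a lower mean with anti-*Vegf* than with IgG, with a median log2 difference of −0.38 against −0.007 over all genes. *Eln* was lower by only −0.08, and its other probe set was at 0.05. The share of all genes with a lower mean was not counted. At an unadjusted p under 0.05, 5 of the 10 were lower (*Mfap4* −0.89, *Loxl1* −0.44, *Lox* −0.42, *Fbn1* −0.40 and *Fbln1* −0.35), as were 2.41% of all genes, and 0 were higher. The arrays overlapped for each of the 5, and the smallest adjusted p among the 10 genes was 0.711. This count rested on single arrays: it was 1 without anti-*Vegf* F6 and 1 without IgG F22, and ranged from 1 to 7 when arrays were left out in turn. Anti-*Vegf* F6 had the lowest signal of its group for *Mfap4*, *Fbln1*, *Fbln5*, *Fbn2*, *Lox* and *Loxl1*, and IgG F22 had the highest of its group for *Mfap4*, *Fbln1*, *Fbln2*, *Fbln5*, *Loxl1*, *Eln*, *Mfap5* and *Fbn2*. The comparison of dexamethasone with anti-*Vegf* uses the same anti-*Vegf* arrays.

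Across arrays of 1 group the genes were compared after subtracting the group means, over 16 arrays and 45 pairs of genes. The closest pair was *Fbln5* and *Loxl1*, with Pearson's r = 0.81 (exact permutation within groups, p = 0.00153, Benjamini-Hochberg p = 0.0686) and Spearman's rho = 0.82 (exact permutation p = 0.00172, Benjamini-Hochberg p = 0.0773), and r = 0.78 without anti-*Vegf* F1x and F6. *Mfap4* and *Fbln5* had r = 0.79 (exact permutation p = 0.0107, Benjamini-Hochberg p = 0.16) and rho = 0.47 (exact permutation p = 0.107, Benjamini-Hochberg p = 0.537), with r = 0.53 without the same arrays. None of the 45 pairs passed the adjustment.

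As a description over all 16 arrays, in which genes that share the step between naïve and treated corneas resemble one another, the 3 genes most like *Lox* were *Pakap* (r = 0.958), *Klf6* (0.955) and *Pla1a* (0.954). Those most like *Fbn1* were *Slit3* (r = 0.961), *Otulinl* (0.954) and *Zeb2* (0.944). For *Eln*, whose signal spanned 0.37 in all, they were *Mapk8ip2* (r = 0.780), *Bmf* (0.754) and *Fam13a* (0.729).

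Of 25 further genes of microfibrils and elastic fibres, 21 were measured. Relative to naïve corneas, 4 were higher and 3 lower with dexamethasone, 2 higher and 3 lower with anti-*Vegf*, and 3 higher and 2 lower with IgG. The shares of all genes were 8.19% and 4.45%, 6.82% and 5.94%, and 6.32% and 5.02% in the same order. *Efemp2*, which encodes fibulin-4, a partner of lysyl oxidase in elastin assembly, was higher by 1.34, 1.21 and 1.11 on the log2 scale in these groups, and *Mfap2*, which encodes a microfibril-associated glycoprotein, was lower (−0.89, −1.01 and −0.69). *Mfap3l*, counted in this list by its symbol and not by a known part in microfibrils, was also lower in all 3 (−1.08, −0.65 and −1.32). *Ltbp4*, which encodes a binding protein of latent TGF-β that guides elastin onto microfibrils, was lower with dexamethasone (−0.59) and anti-*Vegf* (−0.92). *Emilin1* and *Emilin2*, which encode glycoproteins at the elastin surface, were higher with dexamethasone (0.70 and 0.90) and IgG (0.59 and 0.70), and *Ltbp1* with dexamethasone (0.72) and anti-*Vegf* (0.59). Between treatments, *Adamtsl4*, whose product binds fibrillin-1, was higher with dexamethasone than with anti-*Vegf* by 0.63 and than with IgG by 0.63, and *Ltbp3* was higher with dexamethasone than with anti-*Vegf* by 0.27. The median change of the list was −0.03, −0.09 and 0.04 relative to naïve.

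Of 16 further genes of crosslinking and its processing, 12 were measured. With dexamethasone 2 were higher and 0 lower, against 8.19% and 4.45% of all genes. With anti-*Vegf* 2 were higher and 2 lower, against 6.82% and 5.94%, and with IgG 3 were higher and 0 lower, against 6.32% and 5.02%. *Bmp1*, which encodes the protease that cuts the lysyl oxidase precursor, was higher in all 3 groups, by 0.77, 0.62 and 0.76. *Atp7a*, the copper pump that loads secreted copper enzymes, was higher with anti-*Vegf* (0.64) and IgG (0.65), and *Loxl2*, another lysyl oxidase relative, with IgG (0.80). *Fn1*, which encodes fibronectin, was higher with dexamethasone (0.82), and *Postn* (periostin) and *Fmod* (fibromodulin), both of collagen assembly, were lower with anti-*Vegf* (−0.89 and −0.75). *Pcolce*, the enhancer of procollagen cleavage, and *Plod1*, a lysyl hydroxylase, were higher with dexamethasone than with anti-*Vegf* by 0.58 and 0.39.

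Of 16 genes of elastin degradation and its inhibitors, 13 were measured. With dexamethasone 6 were higher and 0 lower, against 8.19% and 4.45% of all genes. With anti-*Vegf* and with IgG 6 were higher and 1 lower, against 6.82% and 5.94% of all genes with anti-*Vegf* and 6.32% and 5.02% with IgG. The 6 were the elastin-cutting proteases *Mmp9* (3.59, 2.43 and 3.36 on the log2 scale), *Mmp12* (1.34, 2.27 and 2.10), *Mmp2* (1.29, 0.69 and 1.02) and *Ctss* (1.73, 1.14 and 1.24) and the inhibitors *Timp1* (5.74, 5.55 and 5.48) and *Slpi* (2.12, 1.83 and 1.73). The inhibitor *Timp3* was lower with anti-*Vegf* (−1.16) and IgG (−0.69). *Mmp12*, the macrophage elastase, was lower with dexamethasone than with anti-*Vegf* (log2 difference −0.93), and *Ctss*, cathepsin S, was higher with dexamethasone than with anti-*Vegf* by 0.59 and than with IgG by 0.49. Several of the 6 genes are also made by leukocytes, whose markers were higher in the same groups, and the part of that shift was not tested.

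Of 10 elastin receptors and chaperones, all measured, 1 was higher with dexamethasone and 1 with IgG and 0 with anti-*Vegf* relative to naïve. The shares of all genes that were higher were 8.19%, 6.32% and 6.82% in the same order. The 1 gene called was *Itgb3*, an integrin subunit, which was higher by 0.79 with dexamethasone and 0.75 with IgG. *Itgb1*, another integrin subunit, was higher with dexamethasone than with anti-*Vegf* by 0.32 and than with IgG by 0.38. In these 4 lists 0 genes were called between anti-*Vegf* and IgG.

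**Figure D4:**
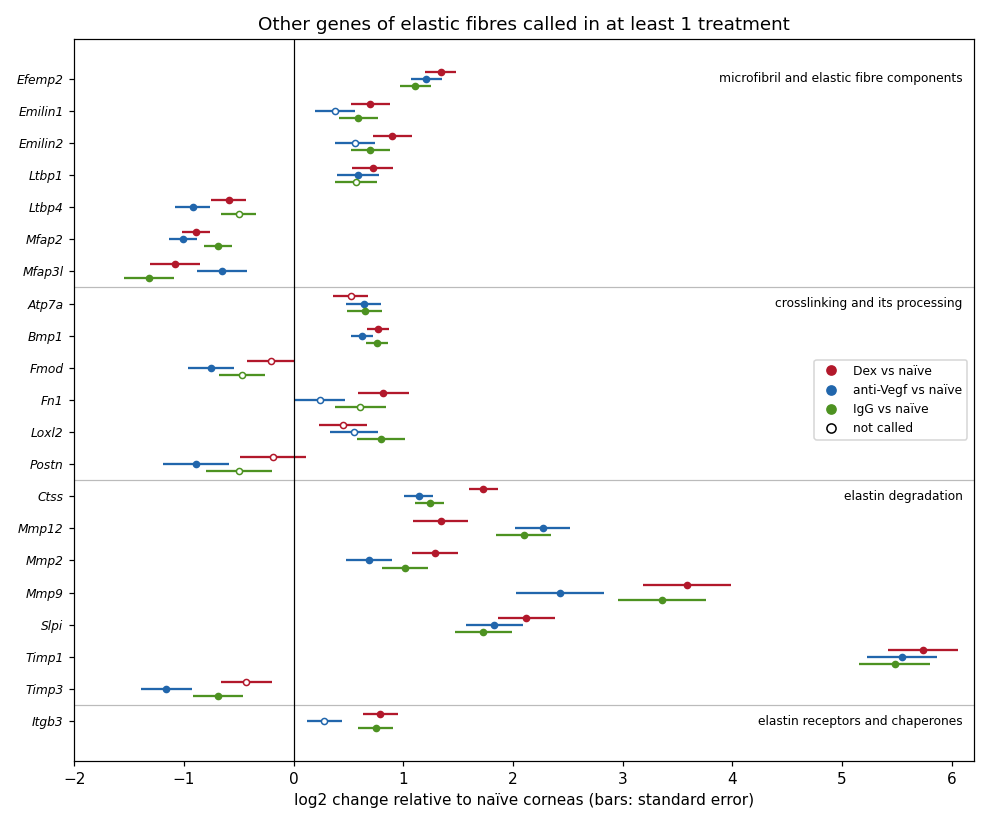
Log2 change relative to naïve corneas (horizontal axis, points) with its standard error (bars) for the 21 further genes of the 4 lists that were DEGs in at least 1 treated group, 4 arrays per group. Filled points passed the limits and open points did not, and *Timp1* lies furthest to the right, at 5.74 with dexamethasone.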

How the data were processed

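In the authors' processing, background correction, normalization and log2 transformation of the scans were done in Affymetrix Expression Console, with RMA named in the labels. The deposited log2 signals of 31099 probe sets on 16 arrays were used as they stand, without pseudocount, and 0 sample columns were left out. The 57 control probe sets were set aside.

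limma 3.58.1 in R 4.3.3 was fitted to 31042 probe sets with a mean for each of the 4 groups, which leaves 12 residual degrees of freedom, with empirical Bayes moderation and Benjamini-Hochberg adjustment, and no array was dropped or imputed. The limits against naïve corneas (adjusted p under 0.05 and 1.5-fold) are those the methods state. Between treatments no fold limit was used. Of the tested probe sets, 20826 carry 1 symbol, 436 several and 9780 none. Values of single control measures were compared by exact permutation tests. The number of arrays limits the precision.

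The named genes are all members, the 3 genes with the highest Pearson r to *Eln*, *Lox* and *Fbn1*, and the called genes of the 4 lists. *Pdgfra*, *Aldh1a1*, *Lum*, *Tagln*, *Mylk*, *Cdh2*, *Col8a2*, *Cd68*, *Epcam*, *Ptprc* and *Krt12* were named as markers after their values were seen. The same holds for *Slc4a11*, *Col8a1*, *Car3*, *Krt14*, *Pax6* and *Aldh3a1*. The members and lists were chosen with earlier results of these data known. Symbols were taken from the array annotation, and gene IDs of 20758 probe sets were found in RefSeq. Alternatives were a mean-variance trend with robust moderation, the compared groups only, cyclic loess, centring on reference genes, a filter on dim probe sets, array weights, averaging the probe sets of each gene, the other probe set, another fold limit and leaving out each array. Python 3.11.15, pandas 2.3.3, scipy 1.17.1 and matplotlib 3.10.9 handled tables and plots. The protein and imaging measurements were not analysed here.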

Additional observations from a re-analysis of the deposited data

Results flagged for a closer look

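Among 40 sets of 4 arrays (10 genes in 4 groups), 1 held an array far from the others. The *Fbn2* signal of naïve 1 was 4.65 on the log2 scale, with the nearest of the other naïve arrays at 4.72, and this gap was 0.88 of the range of the group, so that Dixon's 95% critical value for 4 values was exceeded. Chance alone sets apart about 1 in 20 such groups. The gap is small beside the spread of *Fbn2* in the treated groups, and *Fbn2* was called in no comparison.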

How the results depend on the processing

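Of 972 log2 changes of single genes under the alternatives, 951 kept their side of the limits, 16 no longer passed and 5 newly passed. Among changes that passed in the main fit or in the alternative, 0 reversed direction. Direction was not counted for changes that passed in neither, and some of these changed sign. An example is *Eln* with IgG relative to naïve, at 0.11 and, on its other probe set, −0.19. Centring each array on the 6 reference genes with 1 symbol (of 10 chosen) left 3 of the 6 genes called with anti-*Vegf* relative to naïve: *Lox* was then at 0.53, *Fbn1* at 0.47 and *Fbln1* at 0.16, and *Mfap4*, *Fbln5* and *Loxl1* were still called lower. With that centring the median of all genes lay at −0.343 with dexamethasone, −0.439 with anti-*Vegf* and −0.331 with IgG relative to naïve, and 2 of the reference genes, *B2m* (0.92, 1.20 and 1.00) and *Pgk1* (0.79, 0.87 and 0.68), were themselves higher in these groups. Under it *Fbln1* with dexamethasone was at 0.46, below the fold limit, and *Loxl1* was called lower with dexamethasone (−0.80) and with IgG (−0.81). With probe sets averaged per gene, 0 of the 10 genes were called between dexamethasone and IgG, with *Lox* at 0.50 (adjusted p = 0.105). Leaving out arrays in turn gave 5 to 5 called genes with dexamethasone, 5 to 6 with anti-*Vegf* and 5 to 6 with IgG relative to naïve, 1 to 2 between dexamethasone and anti-*Vegf*, 0 to 1 between dexamethasone and IgG, and 0 to 0 between anti-*Vegf* and IgG. The filter on dim probe sets (above 5.94 on at least 4 arrays) kept 8 of the 10 genes and dropped *Mfap5* and *Fbn2*. Low signal over background limits what *Fbn2*, *Mfap5* and the second probe sets of *Eln* and *Fbln1* can show. No paired analysis was possible because the array numbers in the labels are not shared between groups.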
